A study of Mus musculus with 4 samples.

Results

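Fibronectin (Fn1) and 8 integrin subunits were followed in ribosome footprints of MLE-12 cells. The 9 genes were taken by Ensembl ID from a count table of 53465 IDs, and all 9 IDs were present. They comprise the ligand Fn1, the beta subunit Itgb1, 4 subunits known from receptors that bind fibronectin or related RGD proteins (Itga5, Itgav, Itgb5 and Itgb6) and 3 subunits known from laminin receptors (Itga3, Itga6 and Itgb4). Fn1 was picked on its measured difference between 1-nitropyrene and control libraries, as one of the strongest rises. The integrin subunits were named for their ligands, with the laminin receptors as contrasts, but with earlier results of the same libraries known. The comparison of the groups is therefore a description for all 9 genes, and calls from the fit over all genes are given without p-values.

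MLE-12 is a mouse lung epithelial line that arose in a mouse carrying the SV40 large T antigen under a surfactant protein C promoter, and it serves as a model of alveolar type 2 cells. The exposed cells received 1-nitropyrene at 5 µM, a nitroarene found in diesel exhaust particles, and their 2 libraries carry the replicate numbers 2 and 3. The 2 control libraries came from cells without the compound and carry the numbers 1 and 2. Exposure lasted 12 h, per the design text of the series, and both groups are the same line, so all values describe 1 immortalised line. Ribosome profiling counts the RNA fragments that ribosomes shield from nuclease, so a level reflects both the amount of an mRNA and its occupancy by ribosomes. Matched RNA libraries were not used here, and these cannot be told apart. Separate cultures within a group are not stated in the labels, so every spread between libraries may be technical in origin. SEs and intervals from the fit over all genes rest on a variance shared among genes, not on the spread of each gene alone. Exact intervals cover counting error only.

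Fibronectin is a large secreted glycoprotein that cells assemble into fibrils of the extracellular matrix. Integrins are its main receptors, each a pair of 1 alpha and 1 beta subunit that crosses the membrane and links matrix to the actin or keratin cytoskeleton. In the lung, fibronectin is a known component of the provisional matrix laid down after injury, while laminins of the basement membrane hold epithelial cells through their own integrins.

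The 1-nitropyrene libraries held 1243186 and 1357034 counts and the control libraries 1261372 and 1136145. Levels are given as CPM (counts scaled with TMM to a library of 1e6), on which 1 count was worth between 0.761 and 0.860 CPM. CPM values are not divided by gene length, so they are compared between groups and not between genes. A gene was called at an adjusted p under 0.05 in edgeR's quasi-likelihood fit over the 7719 genes tested. Of these, 9.68% were called higher and 7.58% lower in 1-nitropyrene cells, and 57.3% showed no overlap of CPM between the groups.

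The symbols are those under which the IDs were chosen, since the gene table used here pairs 0 Ensembl IDs with a symbol. For the same reason the lists of other integrins, focal adhesion proteins, matrix partners and cell type markers were not analysed here, and the alveolar identity of the cells was not checked. Gene positions are those of RefSeq on GRCm38.p6, matched by symbol for all 9 genes.

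Itga5 footprints were fewer in proportion to Itgb1, and those of Itgav and Itga3 were lower by more, as described further on. The promoters of Itga5 and Itgb1, the subunits of the alpha 5 beta 1 receptor, are shown as an example. The shift is not particular to this pair. RefSeq promoter entries matched 6 of the 9 members by symbol. Each line below holds the 250 bases before the annotated start, on the strand of the gene, with matches to the GC box (GGGCGG on either strand, bound by Sp1-type factors) in capitals. The Itgb1 window lies at chr8:128685404-128685653 on the plus strand, and the Itga5 window at chr15:103366792-103367041 on the minus strand, both on GRCm38.p6.
Itgb1: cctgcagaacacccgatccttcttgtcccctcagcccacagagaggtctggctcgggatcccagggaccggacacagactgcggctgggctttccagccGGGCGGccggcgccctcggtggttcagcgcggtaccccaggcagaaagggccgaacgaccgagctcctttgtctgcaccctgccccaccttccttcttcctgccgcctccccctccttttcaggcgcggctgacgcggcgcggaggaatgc
Itga5: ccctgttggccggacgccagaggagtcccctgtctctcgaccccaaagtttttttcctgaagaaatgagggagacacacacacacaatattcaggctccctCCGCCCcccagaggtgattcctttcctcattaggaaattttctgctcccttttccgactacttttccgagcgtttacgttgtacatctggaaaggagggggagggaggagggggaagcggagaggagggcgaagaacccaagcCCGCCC

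The Itgb1 window held 1 GC box and the Itga5 window held 2, both of them on the opposite strand. A GC box was found in 32.7% of the 32851 windows of this length in the promoter table. G and C made up 68% of the Itgb1 window and 55.6% of the Itga5 window, against a median of 52.4% over all windows. Neither window held the letters of AP-1 (TGANTCA), the E-box (CACGTG), the cAMP response element (TGACGTCA) or the TATA box (TATAAA), searched on both strands. These letters were found in 6.75%, 6.02%, 1.55% and 12.4% of all windows. No match overlapped another. Footprint counts do not measure promoter activity, and the matches are descriptions of sequence only.

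Fn1 (ENSMUSG00000026193, chr1:71585473-71653280) had the largest fitted fold change of the members. It had 1184 and 1178 counts in 1-nitropyrene libraries, against 441 and 372 in control libraries. This gave 1019 and 933 CPM in 1-nitropyrene cells and 335 and 314 CPM in control cells. Both 1-nitropyrene libraries lay far above both controls. The level averaged 976 ± 60.6 CPM in 1-nitropyrene cells and 325 ± 15.3 CPM in control cells (SD, n = 2 each). The fitted log2 fold change was 1.59 ± 0.067 (SE), and the 95% interval of the fold ran from 2.74 to 3.29. Because Fn1 was picked on this value, it carries no test here.

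As a share of all counts, Fn1 held 0.0952% and 0.0868% in 1-nitropyrene libraries, against 0.0350% and 0.0327% in control libraries. The exact binomial 95% intervals reached down to 0.0819% in the 1-nitropyrene libraries and up to 0.0384% in the controls. Such intervals cover counting error only, since reads without molecular identifiers are not independent molecules. Among the 7719 tested genes 55 had a fold change above that of Fn1, of which 1 averaged 50 counts or more per library, a depth that 3242 genes reached. Under the 11 alternatives the log2 fold change of Fn1 ran from 1.42 with scaling to total counts to 1.65 without 1-nitropyrene replicate 3. Since Fn1 was picked on this contrast, neither its rank nor this range is a test of its rise.

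The genes whose pattern over the 4 libraries lay closest to that of Fn1 were sought among 1791 other tested genes averaging 100 counts or more, by Euclidean distance of centred log2 CPM. ENSMUSG00000083764 was nearest, at a distance of 0.180, with 415 and 405 counts in 1-nitropyrene libraries and 175 and 144 in control libraries. ENSMUSG00000087569 was next, at 0.265, with 1891 and 1961 counts against 837 and 744 in controls. Neither ID is named here, and likeness over 4 libraries is a description of these libraries.

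**Figure D1:**
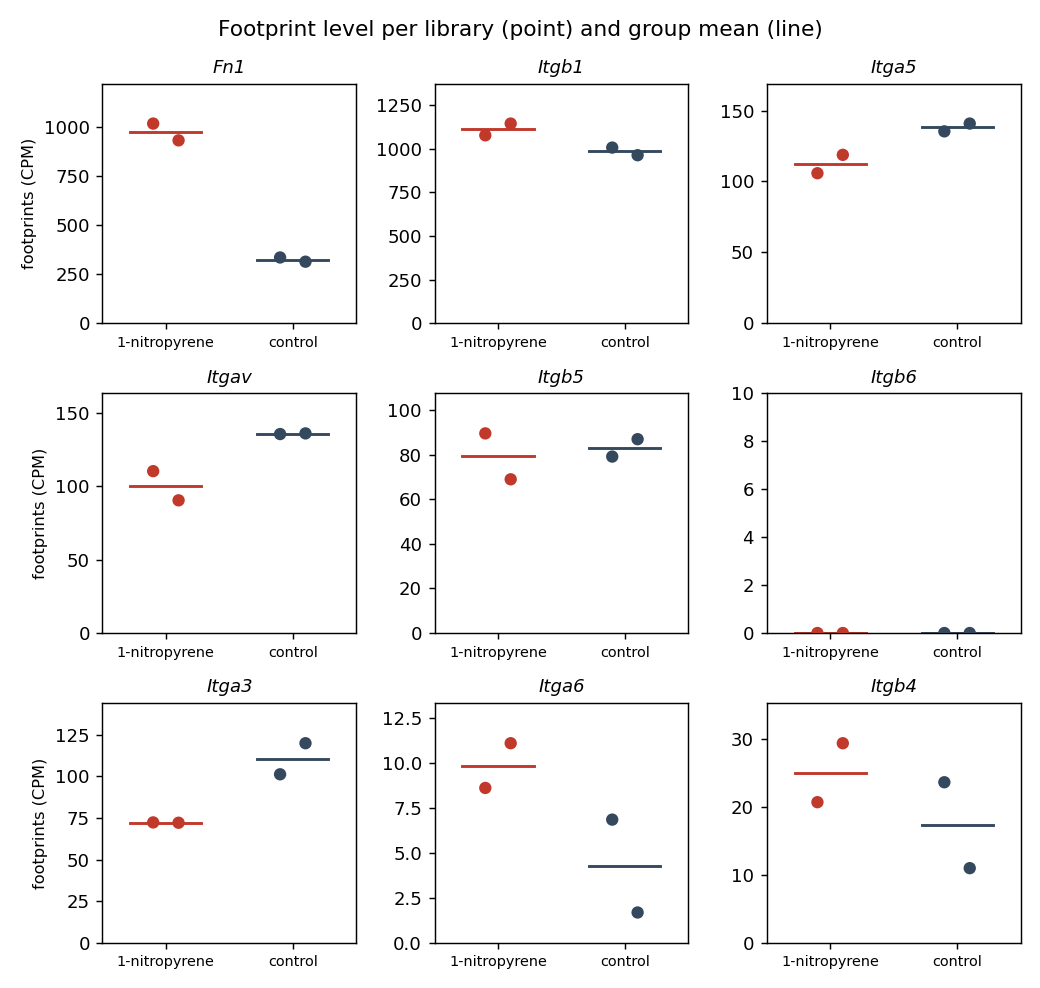
Footprint level in CPM (vertical axes, starting at 0 and differing between panels) of each gene in 1-nitropyrene libraries (red) and control libraries (dark blue). Points are libraries and lines are means of 2. Fn1 stands at 1019 and 933 CPM in 1-nitropyrene cells, against 335 and 314 CPM in controls, while Itgb6 is at 0 in all 4 libraries.

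Among the integrin subunits the fitted changes were smaller and of both signs. Of the 8 subunits, 7 passed the filter on low counts (Itga6 on its 1-nitropyrene counts alone), of which 1 was called higher (Itgb1), 2 were called lower (Itgav and Itga3) and 4 were not called. The shares called over all tested genes stand above, and nothing is read from these counts since the contrast was known when the members were chosen. The median log2 fold change of the 7 subunits was -0.070, beside -0.0076 for all genes tested. It was -0.30 for the 5 subunits other than the scarce Itga6 and Itgb4, a subset taken after the values were seen.

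Itgb1 (ENSMUSG00000025809, chr8:128685654-128733579), the beta 1 subunit that pairs with many alpha subunits including alpha 5, alpha 3 and alpha 6, was higher by a small margin. It had 1250 and 1443 counts in 1-nitropyrene libraries, against 1322 and 1140 in control libraries. The levels were 1076 and 1143 CPM in 1-nitropyrene cells and 1006 and 962 CPM in control cells. The groups did not overlap, but the gap between them was close to the gaps within them. Itgb1 was called higher, by 0.17 ± 0.051 on the log2 scale (SE), or 1.13-fold with a 95% interval of 1.05 to 1.21.

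The small rise of Itgb1 depended on scaling. Its share of all counts was 0.101% and 0.106% in 1-nitropyrene libraries and 0.105% and 0.100% in control libraries, so that on this measure the groups overlapped. With scaling to total counts the log2 fold change was 0.012 and Itgb1 was not called. That scaling shifted all tested genes nearly alike and moved their median to -0.17. Relative to the median Itgb1 therefore stood 0.18 higher under either scaling, which is no separate check. The call was also lost in the DESeq2 Wald test (0.19). With 1 control library left out, the log2 fold change was 0.21 without replicate 1 and 0.15 without replicate 2. With 1 1-nitropyrene library left out, it was 0.23 without replicate 2 and 0.13 without replicate 3.

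Itga5 (ENSMUSG00000000555, chr15:103344286-103366791) encodes the alpha 5 subunit, which pairs with beta 1 alone in the main fibronectin receptor. It had 123 and 150 counts in 1-nitropyrene libraries, against 178 and 167 in control libraries. The levels were 106 and 119 CPM in 1-nitropyrene cells and 135 and 141 CPM in control cells. Both 1-nitropyrene libraries lay below both controls, but the difference was not called. The log2 fold change was -0.30 ± 0.15 (SE), and the 95% interval of the fold ran from 0.666 to 0.998. With scaling to total counts it was called lower, at -0.46, but relative to the median of all genes it stood at -0.29 under either scaling.

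Itgav (ENSMUSG00000027087, chr2:83722303-83806917) encodes the alpha V subunit, which binds RGD sequences of fibronectin, vitronectin and latent TGF-beta in pairs with several beta subunits. It had 128 and 114 counts in 1-nitropyrene libraries, against 178 and 161 in control libraries. The levels were 110 and 90.3 CPM in 1-nitropyrene cells and 135 and 136 CPM in control cells. The groups did not overlap, and Itgav fell by 0.44 on the log2 scale (SE 0.15), to 0.737 of the control level with a 95% interval of 0.598 to 0.910. With 1 control library left out, the log2 fold change was -0.44 without replicate 1 and -0.43 without replicate 2. With 1 1-nitropyrene library left out, it was -0.57 without replicate 2 and -0.30 without replicate 3. The call was lost with no filter (-0.42) and in the DESeq2 Wald test (-0.43). Those fits called 8.52% and 11.2% of the genes they tested, against 17.3% in the main fit.

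Itgb5 (ENSMUSG00000022817, chr16:33829665-33949338) encodes the beta 5 subunit, which pairs with alpha V as a vitronectin receptor. It had 104 and 87 counts in 1-nitropyrene libraries, against 104 and 103 in control libraries, and was not called. The levels of 89.5 and 68.9 CPM in 1-nitropyrene cells overlapped with those of 79.1 and 86.9 CPM in control cells. The log2 fold change was -0.070 ± 0.19 (SE), and the 95% interval of the fold ran from 0.739 to 1.23, so changes within these bounds were not detectable at this depth.

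Itgb6 (ENSMUSG00000026971, chr2:60598292-60722603) encodes the beta 6 subunit, an epithelial partner of alpha V that is known for activating latent TGF-beta in injured lung. It had 0 counts in all 4 libraries and was not tested. A count of 0 allows up to 3 counts per library, or 2.58 and 2.38 CPM in 1-nitropyrene cells and 2.28 and 2.53 CPM in control cells.

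Itga3 (ENSMUSG00000001507, chr11:95044475-95076844), the alpha 3 subunit of the laminin receptor alpha 3 beta 1, had the lowest fold change of the tested members. It had 84 and 91 counts in 1-nitropyrene libraries, against 133 and 142 in control libraries. The levels were 72.3 and 72.1 CPM in 1-nitropyrene cells and 101 and 120 CPM in control cells. The 1-nitropyrene libraries were nearly alike and both lay below the controls, which differed more from each other. Itga3 fell by 0.61 on the log2 scale (SE 0.18), to 0.655 of the control level with a 95% interval of 0.515 to 0.834. The call was lost in the DESeq2 Wald test (-0.60). With 1 control library left out, the log2 fold change was -0.73 without replicate 1 and -0.48 without replicate 2. It was -0.60 without either 1-nitropyrene library.

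Itga6 (ENSMUSG00000027111, chr2:71786886-71858427) and Itgb4 (ENSMUSG00000020758, chr11:115974725-116008412) encode the alpha 6 and beta 4 subunits, which pair in the hemidesmosome and anchor epithelial keratin filaments to laminin. Itga6 had 10 and 14 counts in 1-nitropyrene libraries, against 9 and 2 in control libraries. The levels were 8.60 and 11.1 CPM in 1-nitropyrene cells and 6.85 and 1.69 CPM in control cells, so the groups did not overlap, but on very few counts. Itga6 was not called (log2 fold change 1.16 ± 0.61 SE). It passed the filter only through its 1-nitropyrene counts, so nothing is read from this value. The log2 fold change was 2.48 without control replicate 1 and 0.53 without control replicate 2.

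Itgb4 had 24 and 37 counts in 1-nitropyrene libraries, against 31 and 13 in control libraries. The levels of 20.7 and 29.3 CPM in 1-nitropyrene cells overlapped with those of 23.6 and 11.0 CPM in control cells. Itgb4 was not called (log2 fold change 0.52 ± 0.35 SE, 95% interval of the fold 0.884 to 2.32). Its log2 fold change was 1.19 without control replicate 1 and 0.096 without control replicate 2, so most of its size depended on which control was kept.

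**Figure D2:**
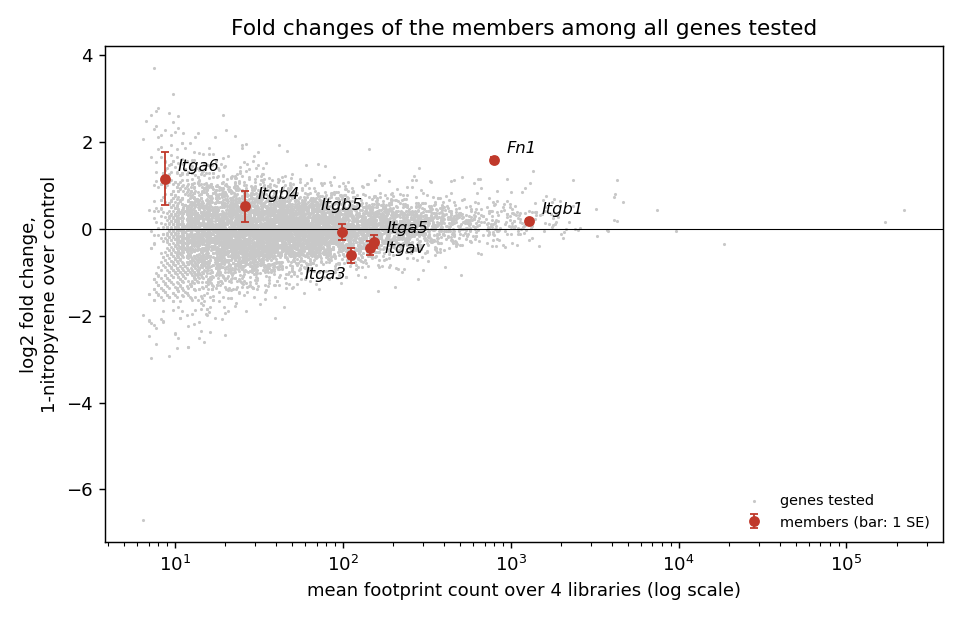
Log2 fold change of 1-nitropyrene over control (vertical axis) against the mean count over the 4 libraries (horizontal axis, log scale) for the 7719 genes tested (grey) and the 8 tested members (red, bars of 1 SE). Fn1 lies at 1.59, Itgb1 lies at 0.17, and Itga5, Itgav and Itga3 lie between -0.30 and -0.61.

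Ratios of counts within a library need no scaling between libraries. Their absolute size depends on gene length, so only the difference between groups is described. For each Itga5 footprint there were 9.63 and 7.85 Fn1 footprints in 1-nitropyrene libraries, against 2.48 and 2.23 in control libraries. The ratio of ligand to alpha 5 receptor subunit was thus 3.70-fold higher in 1-nitropyrene cells, a log2 difference of 1.89 ± 0.17 (SE, n = 2 each). For each Itgav footprint there were 9.25 and 10.3 Fn1 footprints in 1-nitropyrene libraries, against 2.48 and 2.31 in control libraries, a 4.09-fold difference. Against Itgb1 the difference was 2.67-fold. In all 3 ratios the groups lay far apart, and each contains the value on which Fn1 was picked.

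Itga5, Itgav and Itga3 were lower in proportion to beta 1. Per 100 Itgb1 footprints, there were 9.84 and 10.4 of Itga5 in 1-nitropyrene libraries, against 13.5 and 14.6 in control libraries. The log2 difference for Itga5 was -0.47 ± 0.073 (SE, n = 2 each), and an SE from so few libraries is imprecise. The exact 95% interval for counting error ran from 0.609 to 0.859 for the ratio of ratios. Itga5 itself was not called. For Itgav there were 10.2 and 7.90 per 100 in 1-nitropyrene libraries, against 13.5 and 14.1 in control libraries, a log2 difference of -0.62 ± 0.19 (SE). Itga3 stood at 6.72 and 6.31 per 100 in 1-nitropyrene libraries, against 10.1 and 12.5 in control libraries, a log2 difference of -0.78 ± 0.16 (SE). For each of these 3 subunits both 1-nitropyrene libraries lay below both controls. In CPM the groups also did not overlap for these 3 subunits, nor for 57.3% of all genes tested, in either direction. No such share was computed for ratios to Itgb1. All 3 ratios share the denominator Itgb1, itself 0.17 higher on the log2 scale in the fit, so they are not separate observations. The scarce Itga6, which passed the filter through its 1-nitropyrene counts alone, is given without a reading. It stood at 0.800 and 0.970 per 100 in 1-nitropyrene libraries, against 0.681 and 0.175 in control libraries, on 14 counts or fewer. The 4 alpha subunits together, with Itga6, came to 26.6 ± 1.43 per 100 Itgb1 footprints in 1-nitropyrene cells and 39.5 ± 2.64 in control cells (SD, n = 2 each).

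Subunits of receptors for fibronectin or related RGD proteins, here called fibronectin-binding, were set against those for laminin. The ratio was the summed counts of Itga5, Itgav, Itgb5 and Itgb6 over those of Itga3, Itga6 and Itgb4. The sums were 355 over 118 and 351 over 142 in 1-nitropyrene libraries, against 460 over 173 and 431 over 157 in control libraries. The ratios of 3.01 and 2.47 in 1-nitropyrene cells enclosed those of 2.66 and 2.75 in control cells. The log2 difference was 0.013 ± 0.14 (SE, n = 2 each), and the exact 95% interval for counting error ran from 0.828 to 1.22 for the ratio of ratios. The laminin sum joins Itga3, which was lower, to the scarce Itga6 and Itgb4, which were not called and from which no direction is read. Without Itga5 and Itga3, the largest term of each sum, the log2 difference was -1.10, which rests on the few counts of Itga6 and Itgb4. With Itgb1 added to the fibronectin sum it was 0.37.

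**Figure D3:**
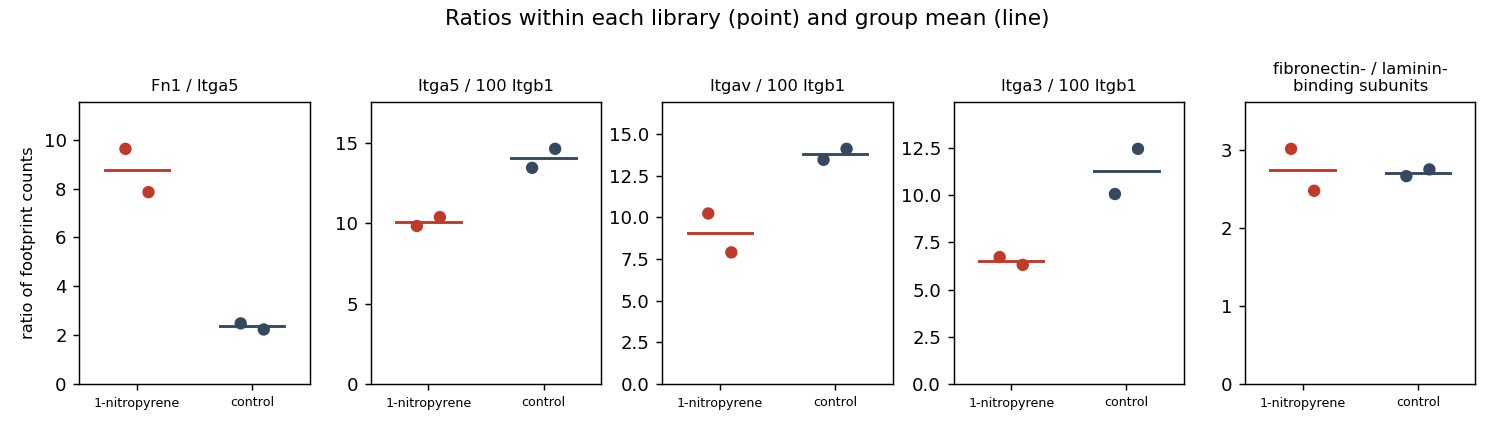
Ratios of footprint counts within each library (vertical axes, starting at 0) in 1-nitropyrene (red) and control libraries (dark blue), with lines at the mean of 2. Fn1 per Itga5 is higher in 1-nitropyrene cells, Itga5, Itgav and Itga3 per 100 Itgb1 are lower, and the ratio of fibronectin-binding to laminin-binding subunits overlaps between the groups.

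Itga3 and the alpha subunits for fibronectin were also compared directly. Per 100 Itga5 footprints there were 68.3 and 60.7 of Itga3 in 1-nitropyrene libraries, against 74.7 and 85.0 in control libraries. The groups did not overlap, but the exact 95% interval for counting error ran from 0.623 to 1.04 for the ratio of ratios. Per 100 Itgav footprints there were 65.6 and 79.8 in 1-nitropyrene libraries, against 74.7 and 88.2 in control libraries, which overlapped. A difference between the laminin-binding alpha 3 and the fibronectin-binding alpha subunits was therefore not detected at this depth.

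**Figure D4:**
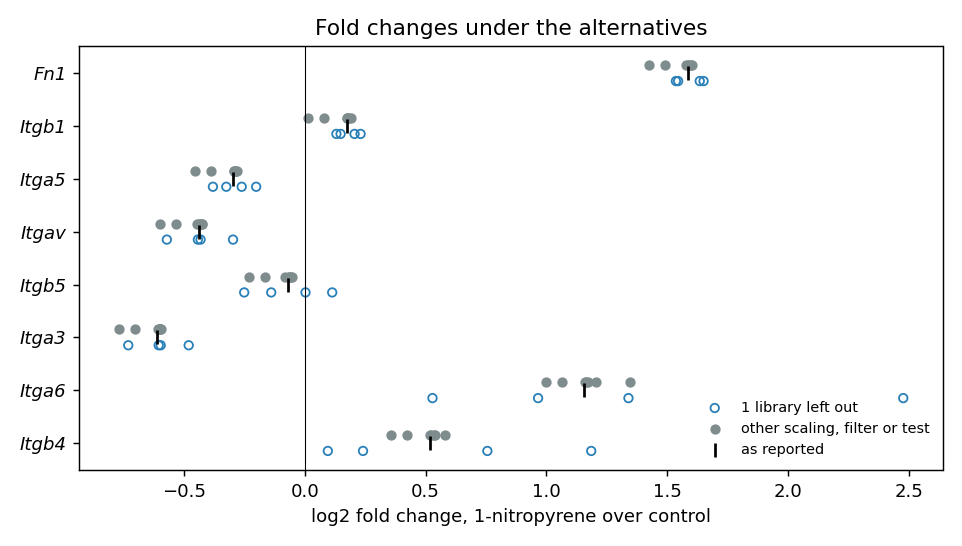
Log2 fold change of 1-nitropyrene over control (horizontal axis) of the 8 tested members as reported (black tick), with another scaling, filter or test (grey) and with 1 library left out (open blue). Fn1 stays between 1.42 and 1.65, Itgav and Itga3 stay below 0, and Itga6 and Itgb4 spread most.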

How the data were processed

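The authors deposited whole-number footprint counts per Ensembl gene ID for 4 libraries, with no normalization. The submitters' processing notes list mm10 as the build and name featureCounts, HISAT2, Bowtie, cutadapt and DESeq2. What each did, with which version and settings, and how strand and shared reads were treated is not given in the sources used here, so reads from overlapping or antisense genes may be included. Total counts ran from 1136145 to 1357034. No library was taken as a copy of another, since chi-square per degree of freedom for genes whose summed count reached 20 was 1.61 between the 1-nitropyrene libraries and 1.55 between the controls.

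Genes were filtered with edgeR's filterByExpr at its defaults (minimum count 10, minimum total 15), which kept 7719 IDs with 98.6% of counts. Itga6 passed it on the counts of the 1-nitropyrene libraries. Libraries were scaled with TMM and compared with edgeR's quasi-likelihood test without covariates (R 4.3.3, edgeR 4.0.16), with Benjamini-Hochberg adjustment over all genes tested. SEs were derived from the fold change and F statistic, and 95% intervals from the SE with a normal approximation. Likeness to Fn1 used a pseudocount of 0.5 counts. The script was tested on simulated data. Alternatives were other scalings and filters, DESeq2 1.42.0, limma-voom (limma 3.58.1) and leaving out each library. Members are named in the given order, and at most 2 other IDs by likeness to Fn1. The members and lists were chosen with earlier results of these data known.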

Additional observations from a re-analysis of the deposited data

How the results depend on the processing

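The fit called 4 of the 8 members tested, beside 17.3% of all genes, 2 higher (Itgb1 and Fn1, which was picked for its rise) and 2 lower (Itgav, Itga3). The direction of Fn1 was the same in all 11 alternatives, which describes the value it was picked on and does not test it. The DESeq2 Wald test called 1 member in all (1 higher, 0 lower), Fn1, beside 11.2% of the 2818 genes with an adjusted p. Itga6 and Itgb4 had no adjusted p in that test. Scaling to total counts called 1 higher and 3 lower (Itga5, Itgav, Itga3), beside 19.5% of all genes. Without the 2 most abundant IDs it called 1 higher and 2 lower, beside 17.7%. No filter called 2 higher and 1 lower, beside 8.52% of the 13738 genes then tested. With 1 library left out, its group takes the spread of the intact one, and fold changes alone are given here. On the log2 scale Fn1 then ran from 1.54 to 1.65 and Itgb1 from 0.13 to 0.23. Itgav ran from -0.57 to -0.30 and Itga3 from -0.73 to -0.48. Itgb1, Itga5, Itgav, Itga3 and Itgb4 kept their direction in every alternative that gave an adjusted p. Itgb5, never called, ran from -0.25 to 0.11 with 1 library left out, above 0 without control replicate 2 (0.0031) and without 1-nitropyrene replicate 3 (0.11). The log2 difference of the integrin ratio was 0.013, moved to 0.37 with Itgb1 and to -1.10 without the largest term of each sum, and ran from -0.13 to 0.16 with 1 library left out. The cause of the other changes was not tested. No paired analysis was possible since 2 is the only replicate number that both groups carry. The division of sums by coding length was not run, since no protein table was used here. Low depth limits Itga6 and Itgb4 most.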
